A study of Macaca mulatta with 4 samples.

Results

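Axon guidance genes of the macaque amygdala, the ligands and receptors by which growing axons find their targets, were compared between infant animals given sevoflurane and controls. Members were chosen by gene symbol from the 35395 genes of the count table: genes whose symbol begins as those of semaphorins, plexins, ephrins, Eph receptors, ROBO or UNC5 receptors do, together with the slits, neuropilins, NTN1, NTN4 and DCC, and without ROBO4. The rule matched 67 genes, and 65 of them had at least 10 reads in at least 2 libraries. The 2 left out were EPHA1, with 41 reads in the male control library and 0 in the other libraries, and UNC5CL, with 45 reads in the male control and 1 to 4 elsewhere. One of the 65, UNC50, shares only the first letters of its name with the netrin receptors, and it is given here alone: 60.1 CPM in the female control, 67.5 in the male control, 33.4 in the female sevoflurane and 44.999 in the male sevoflurane library, which was not called. The remaining 64 guidance genes comprised 32 ligands and 32 receptors in 8 families, and all 64 were tested. They held from 86 reads (NTN1) to 11568 reads (EFNB3) over the 4 libraries together.

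The tissue was the amygdala of wild-type rhesus macaques, with 1 female and 1 male library in each condition. Sevoflurane is an inhaled general anaesthetic. The treated animals breathed it at about 2.5 to 3%, in 3 sessions of 4 hours each near postnatal days 7, 21 and 35, and the amygdala was taken straight after the last session, per the labels. No source used here says what the controls breathed or whether all libraries were made together, so condition cannot be told apart from handling or preparation. The p-values measure the spread between these libraries, which within a condition includes the difference between the sexes.

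Guidance cues attract or repel the growth cone at the tip of an axon. Secreted slits act through ROBO receptors and keep axons from crossing the midline, netrins attract through DCC and repel through UNC5 receptors, class 3 semaphorins act through neuropilins with plexins, and the other semaphorins bind plexins directly. Ephrins are held in the membrane of one cell and bind Eph receptors on another, the A ephrins by a lipid anchor and the B ephrins by a transmembrane domain. In the postnatal brain many of the same proteins act at synapses, in dendrites, in glia and in blood vessels.

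The 4 libraries held 12477047 to 16293371 reads on genes. Neuronal genes were present in every library, with the vesicular glutamate transporter gene SLC17A7 at 791 to 1328 CPM and the GABA-synthesizing enzyme gene GAD1 at 208 to 362 CPM. Levels are CPM values (read counts scaled to library size) with TMM scaling, which are not corrected for gene length, so levels of different genes are not compared. The male control library stood apart in choroid plexus markers, of which 5 summed to 17910 CPM there against 8.09 to 30.9 in the other libraries. Classes of transcript also moved across the whole comparison: of 74 cytosolic ribosomal protein genes, whose messenger RNAs are short, 65 were lower after sevoflurane (median log2 fold change −1.79).

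Guidance genes that differed were mostly higher after sevoflurane. Of the 64, 23 rose and 3 fell at an adjusted p under 0.05 (edgeR's quasi-likelihood test), and 38 were not called. The share called in either direction was 40.6%, beside 40.7% of all 15417 tested genes, so the share of guidance genes called was near that of the table as a whole. By direction, 35.9% of the guidance genes rose, beside 21.3% of all tested genes, and 4.69% fell, beside 19.4%. Their median log2 fold change was 0.77, beside 0.0040 for all tested genes, and it was 0.38 without the female sevoflurane library and 1.01 without the female control. With library totals in place of TMM these medians were 1.001 and 0.24, and 24 guidance genes rose and 2 fell beside 3906 and 2269 of all tested genes. All 26 called genes had the same sign in the female and the male pair, which a call from the same 4 libraries largely requires. Of all 64, 51 had the same sign in both pairs, beside 85.3% of all tested genes. The 2 conditions did not overlap in 41 of the 64, beside 11556 of the 15417 tested genes. The count that fell depended on single libraries: it was 6 without the male control, 5 without the female sevoflurane and 1 without the male sevoflurane library, and DESeq2 gave 8.

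**Figure D1:**
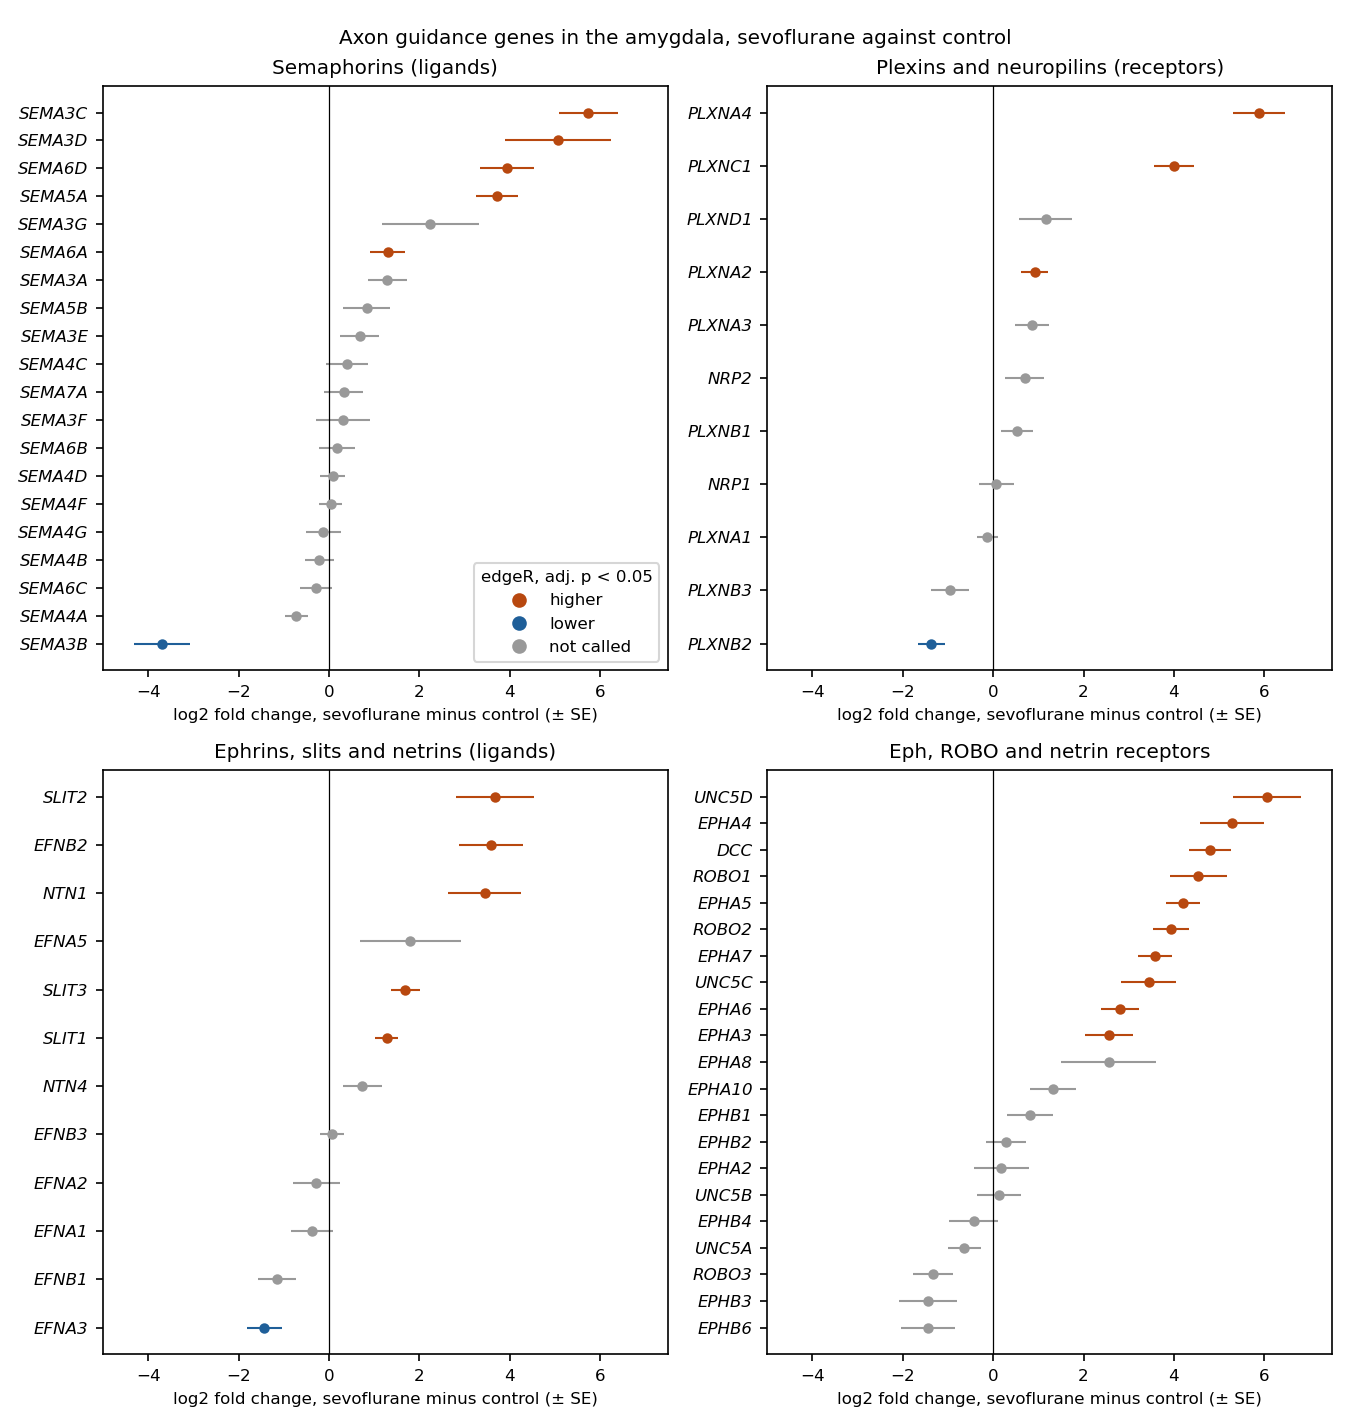
Log2 fold change (x axis, sevoflurane minus control) of each of the 64 guidance genes (y axis), in 4 panels by family; points are edgeR estimates from 2 libraries a condition, bars are ± 1 standard error, and colour gives the call at an adjusted p under 0.05. The 23 called higher reach from 0.92 (PLXNA2) to 6.06 (UNC5D), and the 3 called lower are SEMA3B, EFNA3 and PLXNB2.

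Slits and their receptors ROBO1 and ROBO2 rose together. SLIT1 (ENSMMUG00000010428), the slit found mainly in neurons, stood at 76.1 CPM in the female control and 64.7 in the male control, and at 166 in the female sevoflurane and 175 in the male sevoflurane library. Both sevoflurane libraries lay above both controls, with a log2 fold change of 1.28 ± 0.25 (SE, n = 2 per condition, edgeR adjusted p = 0.00980). SLIT3 was at 10.3 and 8.52 CPM in the female and male controls, and at 31.0 and 29.8 in the female and male sevoflurane libraries (1.69 ± 0.32, adjusted p = 0.00921). SLIT2, the ligand best known for midline repulsion, was less even between the controls, at 7.17 CPM in the female and 0.976 in the male. It reached 68.8 and 37.2 CPM in the female and male sevoflurane libraries (3.67 ± 0.85, adjusted p = 0.0171). The size of the SLIT2 rise rested on the male control library, where only 11 reads were counted: the estimate was 2.85 without that library and 5.77 without the female control. Without the female sevoflurane library the call of SLIT2 was lost (adjusted p = 0.0643), as was that of SLIT1 without the male control (adjusted p = 0.0719).

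ROBO1, a receptor through which slits repel axons, was at 4.37 CPM in the female control and 1.24 in the male control, and at 51.1 and 82.3 in the female and male sevoflurane libraries. Its log2 fold change was 4.54 ± 0.64 (adjusted p = 0.00381), and it was 5.76 without the female control and 3.90 without the male control library. ROBO2, encoded next to ROBO1, was at 10.03 and 5.15 CPM in the female and male controls and at 125 and 109 in the sevoflurane pair (3.94 ± 0.40, adjusted p = 0.00200; 4.53 without the female control). ROBO3, which in the embryo lets commissural axons cross the midline, lay the other way. It was at 15.3 and 18.1 CPM in the female and male controls and at 8.47 and 4.73 in the sevoflurane pair, without overlap, but was not called (−1.34 ± 0.44, adjusted p = 0.0520). ROBO3 was called lower by DESeq2 (adjusted p = 0.0249) and by edgeR with sex as a term beside condition (0.0179). ROBO3 and its neighbour ROBO4 had near-equal reads in the controls, with 235 and 204 reads in the female and male for ROBO3 and 238 and 202 for ROBO4. In the sevoflurane libraries they had 134 and 69 against 153 and 95 reads, and whether the 2 genes share reads was not tested.

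Among netrins and their receptors, the receptors DCC, UNC5C and UNC5D rose from near the limit of detection. DCC (ENSMMUG00000013999), which carries the attractive netrin signal, had 12 and 10 reads in the female and male control libraries, or 0.782 and 0.887 CPM. After sevoflurane it was at 20.1 CPM in the female and 26.5 in the male. The pairs were tight and far apart (4.79 ± 0.46, adjusted p = 0.00187), and the estimate stayed between 4.58 and 4.99 when any 1 library was left out. UNC5D, a repulsive netrin receptor, showed the largest rise of the 64, with 0.391 and 0.0887 CPM in the female and male controls against 22.4 and 12.8 in the sevoflurane pair (6.06 ± 0.75, adjusted p = 0.00289). With 6 and 1 control reads, its size is poorly fixed: it was 5.43 without the male control library, and without the female control the ratio of 540 to 1 reads was 200.2 (95% counting interval 35.8 to 7924). UNC5C, with 8 and 9 reads in the female and male controls, rose from 0.521 and 0.798 CPM to 7.71 and 6.72 (3.45 ± 0.61, adjusted p = 0.00726).

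UNC5A and UNC5B, which were well detected in controls, were not called. UNC5A, the netrin receptor with the most reads, was at 159 and 100.2 CPM in the female and male controls and at 104 and 61.7 in the sevoflurane pair, where the groups overlapped (−0.64 ± 0.37, adjusted p = 0.202). UNC5B, which also acts in vessels, was at 13.4 and 33.8 CPM in controls and 21.3 and 30.5 after sevoflurane (0.14 ± 0.49, adjusted p = 0.841). Of the ligands, NTN1 was scarce throughout, with 2 and 4 reads in the female and male controls (0.130 and 0.355 CPM) and 41 and 39 in the sevoflurane pair (2.59 and 2.68 CPM). It was called higher (3.44 ± 0.81, adjusted p = 0.0179), but the call was lost without the female control (adjusted p = 0.0710), the female sevoflurane (0.0896) or the male sevoflurane library (0.108). Without the male control library the ratio was 20.2 (95% counting interval 5.41 to 170). NTN4, a netrin of basement membranes, was at 32.5 and 15.2 CPM in controls and 47.3 and 32.5 after sevoflurane and was not called (0.74 ± 0.44, adjusted p = 0.216).

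**Figure D2:**
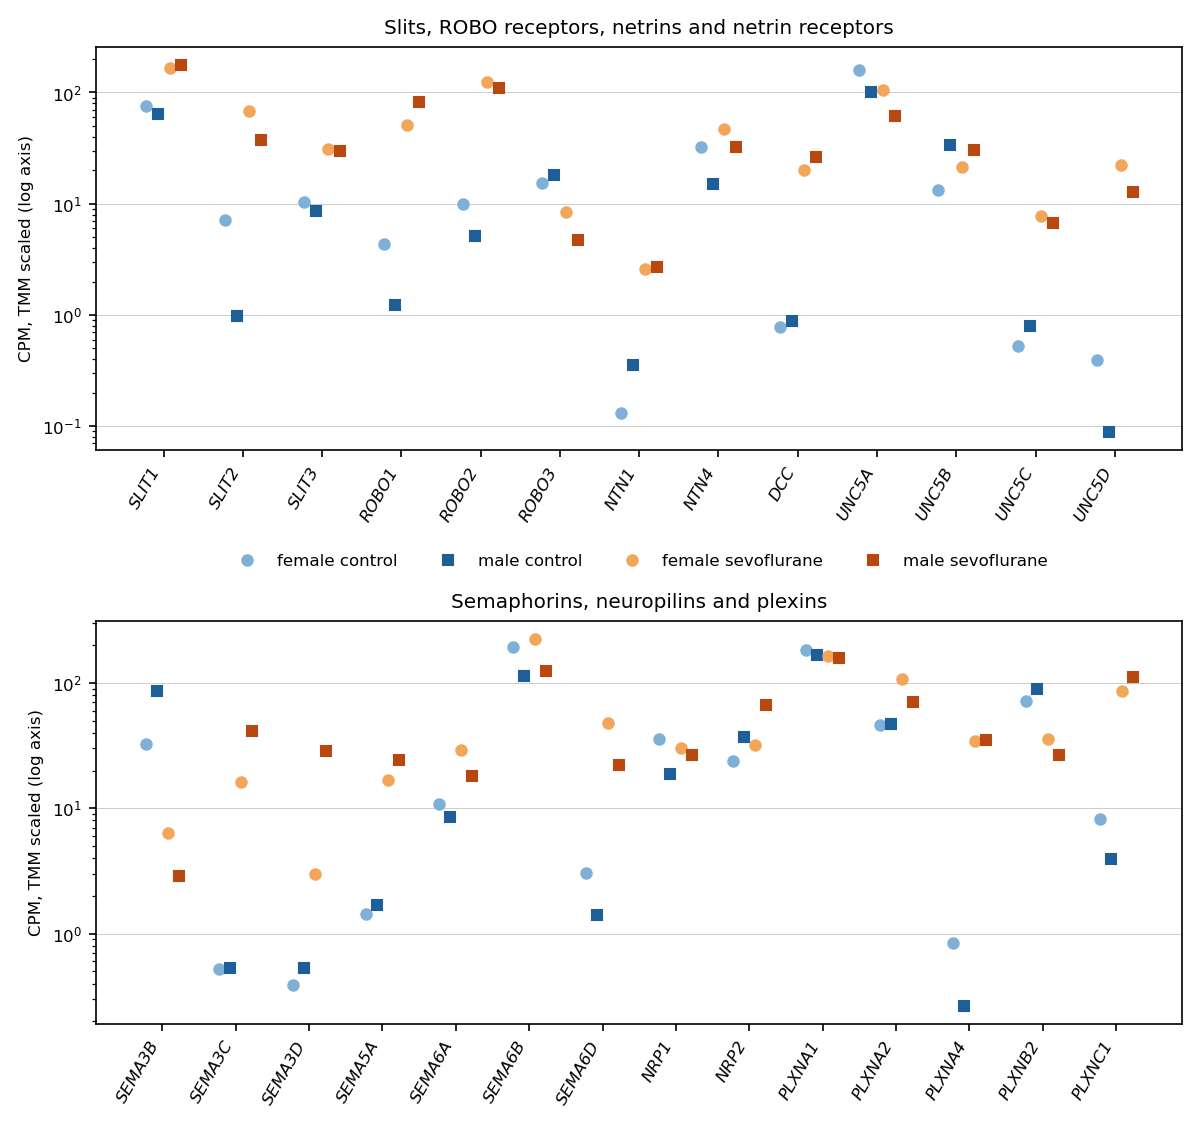
Level of 27 guidance genes in each library (y axis, CPM with TMM scaling on a log axis; x axis, gene), with circles for females, squares for males, blue for control and orange for sevoflurane. In the upper panel DCC, UNC5C, UNC5D, ROBO1 and ROBO2 have both sevoflurane points well above both control points, while UNC5A and UNC5B overlap. In the lower panel SEMA3B and PLXNB2 run the other way.

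Of 20 semaphorins, 5 rose, 1 fell and 14 were not called, with a median log2 fold change of 0.36. The share called was 30%, beside 40.7% of all tested genes, and 25% rose, beside 21.3%. The largest rise and the largest fall among them lay in the secreted class 3. SEMA3C (ENSMMUG00000011785), a secreted cue for axons and vessels, had 8 and 6 reads in the female and male controls (0.521 and 0.532 CPM). It reached 16.2 and 41.0 CPM in the sevoflurane pair (5.74 ± 0.65, edgeR adjusted p = 0.00248). The estimate was 4.93 without the male sevoflurane library, and its size rests on few control reads. SEMA3D had 6 reads in each control library (0.391 and 0.532 CPM), and was at 2.97 CPM in the female sevoflurane and at 28.4 in the male sevoflurane. Its rise (5.07 ± 1.17, adjusted p = 0.0167) thus came largely from the male sevoflurane library, without which the call was lost (2.68, adjusted p = 0.129). It was 5.94 without the female sevoflurane. SEMA3B, a repellent also made by cells of the meninges and vessels, was the gene of largest fall. It was at 32.8 CPM in the female control and 86.9 in the male control, against 6.32 in the female sevoflurane and 2.88 in the male sevoflurane. All 4 ways of leaving out 1 library kept the call of SEMA3B (−3.69 ± 0.63, adjusted p = 0.00637), at −2.87 without the male control and −4.36 without the female sevoflurane.

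The other class 3 genes were not called. SEMA3A, the classical collapsing factor for growth cones, was at 12.97 and 12.5 CPM in the female and male controls and at 19.7 and 42.8 after sevoflurane (1.29 ± 0.44, adjusted p = 0.0551), and it was called with DESeq2 and with sex as a term (adjusted p = 0.0220 in both). SEMA3G, made by arterial endothelium, had 24 reads in the female control and 1 in the male control library, and its estimate of 2.25 ± 1.07 was not called, though it was with sex as a term (2.74, adjusted p = 0.0139). SEMA3E was at 0.68 ± 0.42 and SEMA3F at 0.31 ± 0.59.

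Of the 6 class 4 semaphorins, membrane proteins that act in immune cells as well as on axons, 0 were called with edgeR, and 1, SEMA4A, had an unadjusted p under 0.05. Their log2 fold changes ran from −0.72 (SEMA4A) to 0.39 (SEMA4C). SEMA4F was at 67.3 and 70.1 CPM in the female and male controls and at 63.5 and 77.7 after sevoflurane (0.04 ± 0.25), and SEMA4D, an oligodendrocyte semaphorin, was at 41.7, 41.0, 48.2 and 39.4 in the same order (0.08 ± 0.27). SEMA4B was at −0.21 ± 0.32 and SEMA4G at −0.13 ± 0.38. The sevoflurane pair of SEMA4A, at 47.0 and 45.7 CPM, lay below the control pair at 77.0 and 75.5 (adjusted p = 0.0563), and DESeq2 called it lower (adjusted p = 0.0462).

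Of the transmembrane classes 5 and 6, the genes that rose were SEMA5A, SEMA6A and SEMA6D. SEMA5A was at 1.43 and 1.69 CPM in the female and male controls and at 16.8 and 24.4 after sevoflurane (3.72 ± 0.46, adjusted p = 0.00288). SEMA6D was at 3.06 and 1.42 CPM against 47.8 and 22.2 (3.94 ± 0.59, adjusted p = 0.00444; 4.63 without the female control and 3.30 without the female sevoflurane). SEMA6A, a plexin A ligand, rose less, from 10.7 and 8.52 to 29.4 and 18.0 CPM (1.30 ± 0.39, adjusted p = 0.0401). The SEMA6A call did not survive leaving out the male control (adjusted p = 0.136), the female sevoflurane (0.193) or the male sevoflurane library (0.0513). Their relatives SEMA5B (0.83 ± 0.52), SEMA6B (0.18 ± 0.40) and SEMA6C (−0.28 ± 0.35) were not called. SEMA6B, the semaphorin with the most reads, stood at 195 and 113 CPM in the female and male controls and at 224 and 124 after sevoflurane, so its females lay above its males in both conditions. SEMA7A, held by a lipid anchor, was at 35.7 and 23.9 CPM in controls and 50.6 and 24.4 after sevoflurane (0.33 ± 0.43).

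Among the semaphorin receptors, PLXNA4 and PLXNC1 rose steeply, PLXNA2 rose slightly and PLXNB2 fell. PLXNA4 (ENSMMUG00000005127), the plexin that pairs with neuropilins for SEMA3A and also binds class 6 semaphorins, had 13 and 3 reads in the female and male controls (0.847 and 0.266 CPM). It reached 34.2 and 35.2 CPM in the sevoflurane pair (5.88 ± 0.57, adjusted p = 0.00187). Without the female control, 3 control reads were left, and the ratio was 130.3 (95% counting interval 44.5 to 633). PLXNC1, the receptor of SEMA7A, was at 8.27 and 3.90 CPM in the female and male controls and at 86.4 and 112 in the sevoflurane pair (4.01 ± 0.44, adjusted p = 0.00238; 4.69 without the female control). PLXNA2 was at 46.1 and 47.3 CPM in controls against 107 and 69.9 (0.92 ± 0.30, adjusted p = 0.0485), and its call was lost without the female control (adjusted p = 0.138), the male control (0.164) or the female sevoflurane library (0.172).

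PLXNB2, which is widely made by non-neuronal cells, was at 71.8 and 89.9 CPM in the female and male controls and at 35.7 and 26.8 after sevoflurane. The fall of 1.37 ± 0.29 on the log2 scale (adjusted p = 0.0130) was no longer called without the male sevoflurane library (adjusted p = 0.0585). PLXNA1, the plexin with the most reads, varied little, at 183 and 168 CPM in controls and 163 and 157 after sevoflurane (−0.13 ± 0.24, adjusted p = 0.689). Its direction turned when library totals replaced TMM (0.10). Neither neuropilin was called, by edgeR, by DESeq2 or at an unadjusted p under 0.05. NRP1, shared with the growth factor VEGF, was at 35.5 and 18.9 CPM in controls and at 30.5 and 26.5 after sevoflurane (0.07 ± 0.38). NRP2 was at 23.8 and 36.9 CPM against 32.1 and 66.2 (0.70 ± 0.43), again with overlapping groups. The remaining plexins, PLXNA3 (0.86 ± 0.38), PLXNB1 (0.53 ± 0.35), PLXNB3 (−0.96 ± 0.43) and PLXND1 (1.17 ± 0.59), were not called. With sex as a term beside condition PLXND1 was called higher (adjusted p = 0.00373).

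Of 8 Eph receptors of the A class 5 rose and the other 3 were not called. The share that rose was 62.5%, beside 21.3% of all tested genes. The median over the class was a log2 fold change of 2.68. Of 5 receptors of the B class 0 were called with edgeR, 1 had an unadjusted p under 0.05, and DESeq2 called 2. Their median was −0.44, and 3 of the 5 lay below 0. The summed level of the EPHA genes was 44.7 CPM in the female control and 29.2 in the male control, against 378 and 413 in the female and male sevoflurane libraries. That of the EPHB genes was 375 and 192 CPM in the female and male controls and 205 and 77.2 after sevoflurane. The EPHA sum was thus higher in both sevoflurane libraries than in both controls. EPHB6 made up 258 of the 375 CPM of the EPHB sum in the female control. The difference between the classes was not tested.

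EPHA4 (ENSMMUG00000012364), a receptor for ephrins of both classes found at synapses, was at 4.04 CPM in the female control and 0.798 in the male control, and at 111 and 83.9 in the sevoflurane pair. Its log2 fold change was 5.29 ± 0.71 (adjusted p = 0.00344), with 6.94 without the female control and 4.56 without the male control library. EPHA5, a receptor of the A ephrins with a role in neuronal maps, was at 8.80 and 6.21 CPM in controls and at 107 and 171 after sevoflurane (4.204 ± 0.38, adjusted p = 0.00172). EPHA7 rose by 3.58 ± 0.38, EPHA6 by 2.80 ± 0.42 and EPHA3 by 2.56 ± 0.53, the last at 3.39 without the female control. In these 5 genes both sevoflurane libraries lay above both controls, though the groups did not overlap in 11556 of all 15417 tested genes either. EPHA10, a receptor without kinase activity, was at 8.80 and 3.90 CPM in controls and 18.2 and 13.5 after sevoflurane and was not called (1.31 ± 0.51, adjusted p = 0.0812), though DESeq2 called it (adjusted p = 0.0478), as did edgeR with sex as a term (0.0152). EPHA8 was at 0.586 and 0.798 CPM in controls, 7.27 in the female sevoflurane and 0.892 in the male sevoflurane (2.56 ± 1.06, adjusted p = 0.0970). EPHA2 was at 0.18 ± 0.61.

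EPHB6, also without kinase activity, had the most reads of the Eph receptors and was at 258 CPM in the female control, 124 in the male control, 107 in the female sevoflurane and 34.1 in the male sevoflurane library. The groups did not overlap, but the sexes lay so far apart within each that the difference was not called (−1.44 ± 0.59, adjusted p = 0.0958). EPHB3 showed the same order, at 70.6, 41.7, 33.2 and 8.30 CPM (−1.44 ± 0.64, adjusted p = 0.118). With sex as a term beside condition, EPHB6 (adjusted p = 0.000469) and EPHB3 (0.00118) were called lower, and DESeq2 without that term called them too (0.0283 and 0.0494). EPHB1 (0.81 ± 0.51), EPHB2 (0.29 ± 0.44) and EPHB4 (−0.44 ± 0.55), the last a receptor of venous endothelium, were not called.

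Of 7 ephrins, 1 rose and 1 fell, and the median log2 fold change was −0.28. The share called was 28.6%, beside 40.7% of all tested genes. EFNB2, which marks arteries and is also a synaptic ligand of EPHA4, was at 2.48 CPM in the female control and 0.532 in the male control and at 19.2 and 17.9 after sevoflurane (3.58 ± 0.72, adjusted p = 0.0105). Its size moved with the controls, to 5.12 without the female and 2.87 without the male. EFNA3 fell from 114 and 90.8 CPM to 50.5 and 25.4 (−1.43 ± 0.38, adjusted p = 0.0270), a call lost without the male sevoflurane library (adjusted p = 0.0790) and with library totals (0.0526). EFNA3 lies between EFNA1 and EFNA4 in the RefSeq order of genes (assembly T2T-MMU8v2.0), and whether reads of these neighbours are shared was not tested (EFNA4 was not analysed here). EFNB3, the ephrin with the most reads, was nearly level, at 185 and 214 CPM in the female and male controls and 179 and 238 after sevoflurane (0.06 ± 0.27). EFNB1 was at 25.0 and 16.9 CPM against 11.6 and 7.13 and was not called with edgeR (−1.16 ± 0.42, adjusted p = 0.0677), but was called lower by DESeq2 (0.0449) and with sex as a term (0.0209). EFNA1 (−0.37 ± 0.46), EFNA2 (−0.28 ± 0.52) and EFNA5 (1.80 ± 1.12) were not called. With sex as a term EFNA5 was called higher (adjusted p = 0.0326).

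**Figure D3:**
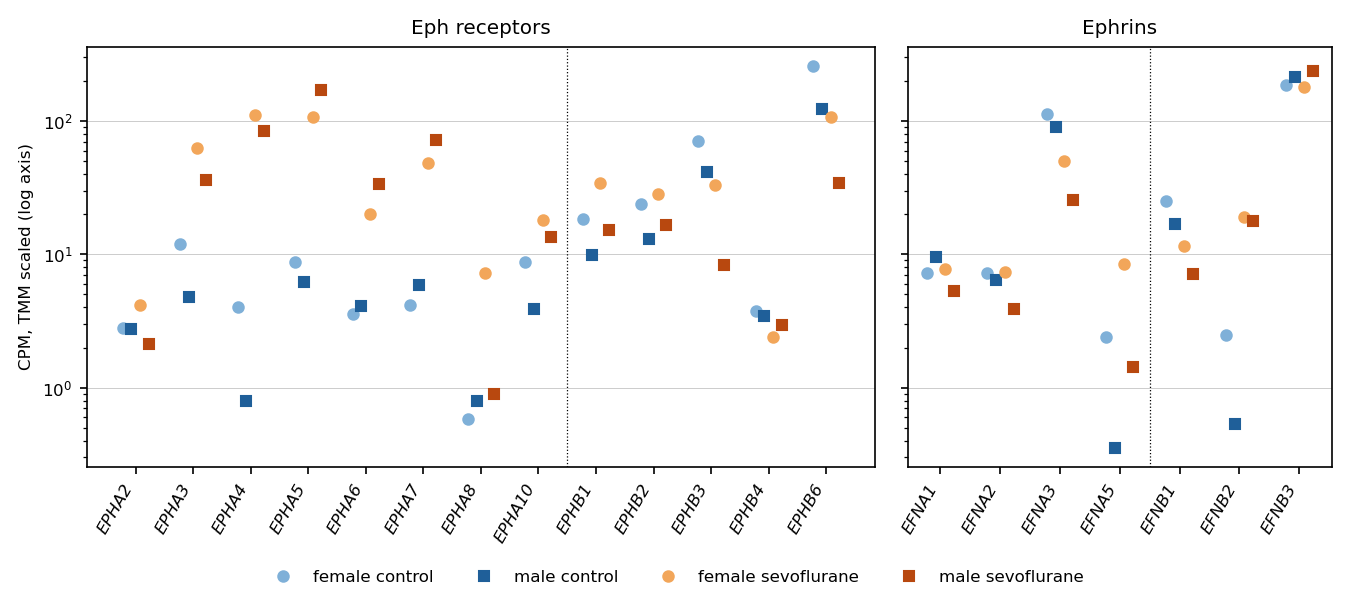
Level of the 13 Eph receptors and 7 ephrins in each library (y axis, CPM with TMM scaling on a log axis; x axis, gene), with circles for females, squares for males, blue for control and orange for sevoflurane; dotted lines part the A from the B class. EPHA3 to EPHA7 have both sevoflurane points above both control points, and for EPHB3 and EPHB6 all sevoflurane points lie below the controls.

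Ligands and receptors of the same system were set side by side. Over all families 10 of 32 ligands rose and 2 fell, and their median log2 fold change was 0.53. Of 32 receptors 13 rose and 1 fell, with a median of 0.89. When 1 library was left out the medians ran from 0.17 (without the female sevoflurane) to 0.75 for ligands and from 0.47 (without the same library) to 1.24 for receptors. In the slit system 3 of 3 slits and ROBO1 and ROBO2 rose, and ROBO3 was not called. In the netrin system NTN1, DCC, UNC5C and UNC5D rose, while NTN4, UNC5A and UNC5B were not called. The netrin receptors together summed to 174 and 136 CPM in the female and male controls and to 176 and 138 after sevoflurane. For class 6 semaphorins, SEMA6A and SEMA6D rose, as did the receptors PLXNA2 and PLXNA4, while SEMA6B and SEMA6C were not called. Across all the systems, the calls of SLIT1, SLIT2, NTN1, SEMA3D, SEMA6A, PLXNA2, PLXNB2 and EFNA3 depended on single libraries. PLXNC1 rose (4.01) while its ligand SEMA7A was at 0.33 ± 0.43 and was not called. In the Eph system 5 EPHA genes rose, EFNB2, a ligand of EPHA4, rose (3.58), EFNA3 fell (−1.43), and the other A ephrins, EFNA1, EFNA2 and EFNA5, were not called. The plexins set beside SEMA5A here were PLXNA1, PLXNA3 and PLXNB3, at −0.13, 0.86 and −0.96. SEMA5A was called and none of them was, while PLXNA2, which rose, was not part of that pairing. The difference between the members of a pair was not tested. With condition as the only term, neither partner was called for SEMA3E and PLXND1. SEMA4D and PLXNB1 were not called either, while PLXNB2, also paired with SEMA4D, fell (−1.37). Of the class 3 semaphorins SEMA3C and SEMA3D rose and SEMA3B fell. On their receptor side PLXNA2 and PLXNA4 rose, and neither neuropilin, PLXNA1 nor PLXNA3 was called. Beside the rise of EFNB2, 0 of 5 EPHB genes were called with edgeR, and DESeq2 called 2 of them lower.

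The female and the male pair were also read separately, as log2 ratios of CPM + 0.5. Of the 64 genes 51 moved the same way in both pairs, beside 85.3% of all tested genes. Among the 13 that did not, the gap was widest for SEMA3F, at 1.02 in females and −0.53 in males. Among called genes the ratios differed most for SEMA3D, at 1.96 in females and 4.81 in males, SEMA3B, at −2.29 and −4.69, and ROBO1, at 3.41 and 5.57. With 1 library per sex and condition, these differences between the sexes could not be tested.

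**Figure D4:**
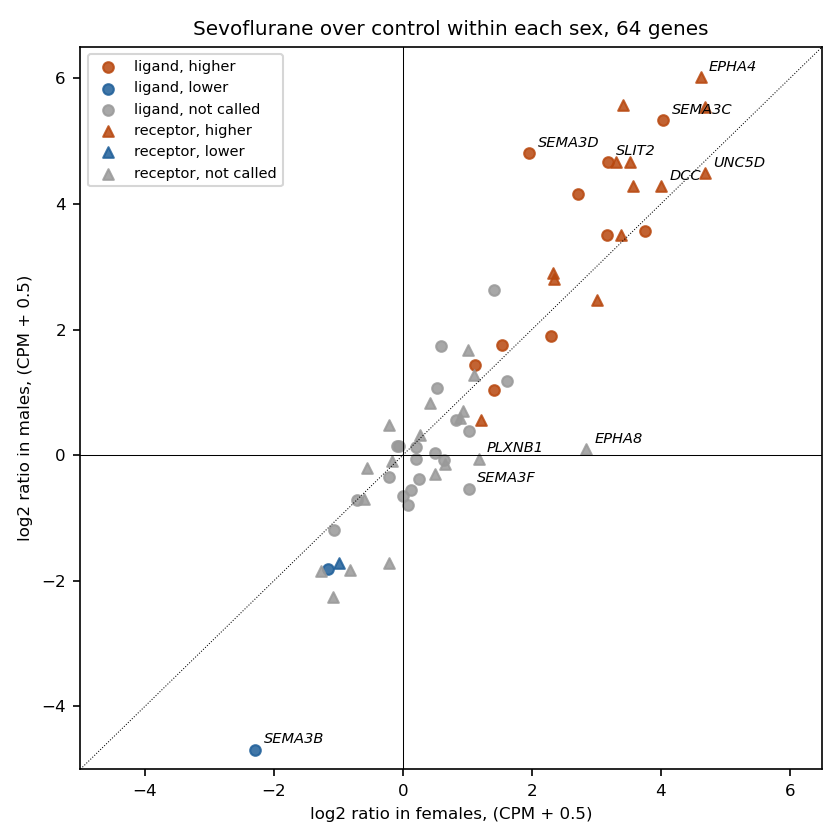
Log2 ratio of sevoflurane over control (CPM + 0.5) in females (x axis) and in males (y axis) for the 64 guidance genes, with circles for ligands, triangles for receptors and colour for the edgeR call; the dotted line marks equal ratios. Called genes lie in the upper right or lower left of the plot, SEMA3D lies well above the line, and EPHA8 lies near 0 in males.

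Sex itself was tested with condition as a second term. Of the 64 genes 2 were called, beside 1.84% of all tested genes, and 19 had an unadjusted p under 0.05, 16 of them lower in males, where 10.9% of all tested genes had such a p. The called genes were EPHB6 (male minus female −1.35, adjusted p = 0.0289) and PLXND1 (−1.34, adjusted p = 0.0321). PLXND1, the receptor of SEMA3E in vessels and neurons, was at 45.7 and 99.1 CPM in the control and sevoflurane females and at 16.9 and 41.6 in the males. DESeq2 also called SLIT2 (−1.72, adjusted p = 0.0354), and library totals gave 6 calls. EFNA5 was at 2.41 and 8.41 CPM in the females and 0.355 and 1.44 in the males (adjusted p = 0.0801). SLC17A6, a vesicular glutamate transporter gene, was at 29.2 and 68.1 CPM in the control and sevoflurane females and at 111 and 389.8 in the males. Its part in the differences between the sexes was not tested.

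The wider guidance machinery was read from a list of 80 co-receptors, adaptors, kinases and other signalling genes that act with or below these receptors. All 80 were tested, and 32 rose, 7 fell and 41 were not called, with a median log2 fold change of 0.62. The shares were 40% higher and 8.75% lower, beside 21.3% and 19.4% of all tested genes. The leading rises were ARHGEF12, an exchange factor bound by plexin B receptors (5.20 ± 0.38), VAV3, an exchange factor downstream of Eph receptors (4.49 ± 0.62), and ABLIM1, an actin-binding protein (4.15 ± 0.52). ARHGEF12 was at 6.38 and 3.73 CPM in the female and male controls and at 171 and 203 after sevoflurane. The leading falls were RRAS (−1.84 ± 0.44), a small GTPase that plexins inactivate, RGMA (−1.64 ± 0.42), a repulsive ligand of neogenin, and FES (−1.61 ± 0.52), a kinase in semaphorin signalling. The call of FES was lost without any 1 library and with library totals, and that of RRAS without the male sevoflurane. RGMA was at −2.38 without the female sevoflurane. Without the male sevoflurane library 23 of the list rose and 4 fell, and when a change of more than 2-fold was required 20 rose and 2 fell.

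In bulk tissue, fewer cells of a type and less RNA per cell cannot be told apart. Markers of the cell types that make several of these genes moved as well. Of 4 markers of meningeal fibroblasts 3 were called lower. Their summed level was 486 and 279 CPM in the female and male controls and 94.4 and 73.1 in the female and male sevoflurane libraries. SEMA3B also fell, but between the controls it ran the other way, at 32.8 CPM in the female and 86.9 in the male. The male control was also the library with 17910 CPM of choroid plexus markers. Of 5 endothelial markers, read beside EFNB2, SEMA3G, UNC5B and EPHB4, 2 were called higher, FLT1 (4.97) and CDH5 (3.13). CLDN5 was called lower (−2.63), and PECAM1 (−0.20) and VWF (−0.12) were not called. Their sums were 160 to 207 CPM in the controls and 117 to 123 after sevoflurane. CLDN5 alone made up 111 and 149 CPM in the female and male controls and 21.4 and 20.4 after sevoflurane. Of 4 markers of immature neurons 1 was called higher, DCX, with 4 and 1 reads in the female and male controls (0.261 and 0.0887 CPM). It was at 7.97 and 9.81 CPM after sevoflurane. The other markers of that list, STMN2 (−0.08), SOX11 (0.64) and IGFBPL1 (1.56), were not called. STMN2 was at 1968 and 1858 CPM in the female and male controls and 1616 and 1994 after sevoflurane. Of 5 astrocyte markers 2 were called lower, GFAP (−2.53) and ALDH1L1 (−1.16). The other astrocyte markers, SLC1A3 (1.01), AQP4 (0.59) and GJA1 (0.56), lay the other way and were not called, and the median of the list was 0.56. Of 4 markers of oligodendrocyte precursors PDGFRA was called higher (0.99) and OLIG2 lower (−1.74), and of 4 pericyte and smooth muscle markers RGS5 was called higher (1.93) and ACTA2 lower (−3.24). Of 5 microglial markers 3 were called lower, with sums of 331 to 374 and 152 to 211 CPM. Of 4 oligodendrocyte markers 0 were called by edgeR or DESeq2 and 0 had an unadjusted p under 0.05, but their sum was 1360 CPM in the female control and 5905 in the male control, beside 2770 and 3600 after sevoflurane. Of the 5 choroid plexus markers with an ID, KCNJ13 was at 0 in both sevoflurane libraries, FOLR1 in the male sevoflurane and KL in the female control. Of 5 excitatory neuron markers 0 were called by edgeR or DESeq2, with 0 at an unadjusted p under 0.05, and of 5 inhibitory ones 0 by edgeR and 1 (LHX6) by DESeq2 and at an unadjusted p under 0.05. The part of these cell types in the results was not tested.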

How the data were processed

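The authors deposited raw read counts per gene, 1 column per library, under Ensembl macaque gene IDs, and 24173 of 35395 IDs were given a symbol by a table of gene names. Reads were aligned with HISAT2, per the submitters' processing notes. No source used here gives its version, the counting program, the use of strand, the genome build or the annotation, so no gene positions are printed. Sequences were not used here.

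Groups came from the treatment label. Genes passing edgeR's filterByExpr (minimum count 10), 15417 in all, were TMM-scaled and tested with edgeR 4.0.16 (glmQLFit, glmQLFTest, condition as the only term, 2 residual degrees of freedom, Benjamini-Hochberg adjustment over all tested genes, called under 0.05). Standard errors came from the F statistic. Sex was tested with condition and sex as terms (1 residual degree of freedom). DESeq2 1.42.0, other scalings and filters, sex as a term and leaving out each library were the alternatives.

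Members and lists were chosen with earlier results of these data known. Values in every library were given for the 2 called genes of largest rise and of largest fall and the gene with the most reads in each family, and for all slits, ROBO receptors, netrins, neuropilins and DCC; other genes were named after their values were seen. A result withheld for evaluation is not reported here.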

Additional observations from a re-analysis of the deposited data

Results flagged for a closer look

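In 13 guidance genes sevoflurane over control ran one way in the female pair and the opposite way in the male pair. All 13 had an adjusted p above 0.05 in the comparison of conditions, each pair is 1 library against 1, and the difference between the sexes was not tested. The log2 ratios of CPM + 0.5 in females and in males were 1.02 and −0.53 for SEMA3F, 1.18 and −0.056 for PLXNB1, 0.086 and −0.80 for EFNA1, 0.50 and −0.31 for EPHA2, 0.65 and −0.14 for UNC5B and 0.64 and −0.071 for SEMA4C. They were 0.13 and −0.55 for SEMA4B, 0.0067 and −0.64 for EFNA2, 0.25 and −0.38 for SEMA4G and 0.21 and −0.055 for SEMA4D. The males were the higher of the pairs for NRP1 (−0.21 and 0.48), SEMA4F (−0.084 and 0.15) and EFNB3 (−0.052 and 0.15). Of the 6 class 4 semaphorins, 5 are among these 13 genes.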

How the results depend on the processing

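Of the 26 called genes, 16 kept their direction and call in all alternatives run, UNC5C did so in all but the filter at a mean of 5 CPM, which removed it, and 0 changed direction in any (edgeR and DESeq2 fits alike). The count of guidance genes that rose stayed at 20 to 26 when 1 library was left out. The count that fell (3) was 8 with DESeq2 (4 ligands, 4 receptors), 7 without a filter and 7 with sex as a term (4 receptors in each), and 1 when a change of more than 2-fold was required (edgeR's glmTreat, chosen after seeing the data; 1 ligand, 0 receptors). With library totals 1 ligand fell, and 6 genes were called between the sexes. The glmTreat rule called 1891 of all tested genes higher and 1139 lower. Leaving out 1 library gave 1 to 6 guidance genes that fell (1 to 3 ligands, 0 to 3 receptors), and 1967 to 3029 of all tested genes higher and 1502 to 2771 lower, with the lowest values without the male sevoflurane. Genes with estimates near 0 changed sign. With library totals PLXNA1 was at 0.10, SEMA4B at 0.026 and SEMA4G at 0.11. Across the 4 fits without 1 library the log2 fold change ran from −0.16 to 0.26 for EFNB3, −0.36 to 0.92 for UNC5B, −0.15 to 0.80 for EPHB2, −0.35 to 0.62 for NRP1, −0.49 to 0.37 for SEMA4G, −0.30 to 0.64 for SEMA6B, −0.37 to 0.59 for EPHA2, −0.26 to 0.73 for SEMA3F, −0.34 to 0.88 for SEMA4C, −0.058 to 0.22 for SEMA4D, −0.28 to 0.77 for SEMA7A, −0.80 to 0.10 for EFNA2 and −0.11 to 0.19 for SEMA4F. The cause of these changes was not tested. No paired analysis was possible because the labels give no replicate numbers; the fit with sex as a term is the nearest. Fold changes of NTN1, UNC5D, SEMA3D, SEMA3C, PLXNA4, UNC5C and DCC rest on few control reads.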

Other observations

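Among the 80 genes of the guidance machinery, several partners of the families above were also called; they were named after their values were seen. SRGAP3, whose protein binds ROBO receptors, was at 3.97 and 3.28 CPM in the female and male controls and at 70.6 and 50.1 after sevoflurane, a log2 fold change of 4.05 ± 0.36 (SE, n = 2 per condition, edgeR adjusted p = 0.00171). NEO1, a relative of DCC that binds netrins and repulsive guidance molecules, was at 43.0 and 38.5 CPM against 126 and 133 (1.67 ± 0.25, adjusted p = 0.00441). Its ligand RGMB was at 18.5 and 7.19 CPM against 68.8 and 56.7 (2.28 ± 0.48, adjusted p = 0.0126; 3.15 without the female control), while its ligand RGMA was among the genes that fell.

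Lower after sevoflurane were CFL1, the actin-severing cofilin, at 2055 and 1948 CPM in the female and male controls against 704 and 621 (−1.59 ± 0.27, adjusted p = 0.00635), and CDK5, a kinase in semaphorin signalling, at 194 and 208 CPM against 62.0 and 74.8 (−1.55 ± 0.25, adjusted p = 0.00569). SRGAP3, NEO1, RGMB, CFL1 and CDK5 kept their call when any 1 library was left out. SRGAP1 (2.31 ± 0.72, adjusted p = 0.0438) and ADAM10 (1.25 ± 0.28, adjusted p = 0.0149) were looked at in the same way and were called higher by edgeR with all libraries. When single libraries were left out, SRGAP1 kept that call only without the male control, and ADAM10 only without the female sevoflurane. Their estimates then ran from 1.74 to 3.05 for SRGAP1 and from 0.999 to 1.47 for ADAM10.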
